A study of Mus musculus with 4 samples.

Results

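Transcripts of 9 genes that carry fatty acids from blood lipoproteins into cells were compared between control and tamoxifen libraries of mouse cerebral endothelial cells (ECs). The genes were chosen by symbol, *Lpl*, *Gpihbp1*, *Angptl4*, *Cd36*, *Slc27a1*, *Slc27a4*, *Fabp4*, *Fabp5* and *Acsl5*, and all 9 were found among the 24873 genes of the expression table. *Cd36*, *Slc27a1*, *Fabp4* and *Fabp5* were higher in the tamoxifen libraries, *Gpihbp1* and *Acsl5* were lower, and *Lpl*, *Angptl4* and *Slc27a4* did not meet the criteria for differential expression. The result for *Acsl5* depended on how the libraries were scaled. Measured against endothelial markers, which were lower as well, *Acsl5* was higher and *Gpihbp1* did not meet the criteria. The largest difference was that of *Cd36*, which was 48.1-fold higher by the means of the groups.

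All mice were Cdh5cre;Mgpflox/flox, so that control and tamoxifen mice alike carried a tamoxifen-activated recombinase driven by the VE-cadherin (*Cdh5*) promoter and floxed alleles of *Mgp*, which encodes the bone morphogenetic protein inhibitor matrix Gla protein. Tamoxifen mice were injected once a day with 75 mg/kg on 5 days, starting at 10 weeks of age, and control mice received none, so an effect of the drug itself and an effect of the deletion cannot be told apart. The study's methods describe the cells as CD31+CD45- cerebral cells isolated on day 9, whereas the sample labels call them brain tdTomato+ cells. Each group had 2 libraries, each from cells of 3 pooled mice. The table heads its columns with the letters C and A and a number, and the C columns were taken as controls and the A columns as tamoxifen since no label explains the A.

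Each library held between 35387438 and 49799321 reads on genes. The deleted gene *Mgp* had normalized counts (reads divided by a size factor for each library) of 1094 and 1352 without and 945 and 909 with tamoxifen, a log2 fold change of -0.39 by limma with Benjamini-Hochberg (BH) adjusted p = 0.0986, and was called under neither of the other scalings, with 0.08 at equal totals and -0.65 (BH-adjusted p = 0.0120) under quantile normalization. All 16 endothelial markers examined, *Pecam1* and *Cdh5* among them, were present in every library and were lower after tamoxifen, with log2 fold changes between -3.43 and -2.75. Summed over the 16 markers, the controls held 1246560 and 1288240 normalized counts against 229184 and 116909 after tamoxifen. In bulk RNA, fewer cells of a type and less RNA per cell cannot be told apart. Markers of several other cell types were higher in the tamoxifen libraries, including 10 of 10 neutrophil, 7 of 7 erythroid, 7 of 10 microglia and macrophage, 5 of 5 megakaryocyte and platelet, 7 of 7 muscle, 6 of 6 fibroblast, 8 of 8 astrocyte, 6 of 6 choroid plexus and ependymal, 6 of 8 neuron, 6 of 7 oligodendrocyte, 2 of 10 pericyte and smooth muscle, 8 of 8 pluripotent cell and 6 of 6 cell cycle markers tested. The pluripotent cell list had the highest median log2 fold change of the lists (8.94), and all 6 pituitary markers were lower (median -6.07). Of all 20485 genes tested, 5867 were called higher and 3284 lower, and 64.1% of the calls were therefore higher. That share was 80.3% with equal totals and 47.3% with quantile normalization.

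Triglyceride-rich lipoproteins are too large to cross the capillary wall, so their triglycerides are cut at its luminal face. Lipoprotein lipase (*Lpl*) performs the cut, the GPI-anchored protein GPIHBP1 carries the enzyme across ECs and holds it there, and ANGPTL4 inactivates it. The fatty acids set free are taken up with the help of the scavenger receptor CD36 and of fatty acid transport proteins such as FATP1 (*Slc27a1*) and FATP4 (*Slc27a4*), bound in the cytosol by the fatty acid binding proteins FABP4 and FABP5, and coupled to coenzyme A by synthetases such as ACSL5. CD36, FABP4 and GPIHBP1 are best known from capillaries of heart, muscle and fat, whereas the brain takes up little fatty acid from lipoproteins and obtains docosahexaenoic acid largely through the transporter MFSD2A of its ECs.

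Upstream sequences are shown for *Cd36*, *Slc27a1*, *Slc27a4* and *Acsl5*, the 4 of the 9 genes matched in the RefSeq promoter table (GRCm38.p6), of which *Cd36* and *Slc27a1* rose and *Acsl5* fell. Each sequence covers the 250 bases before a listed transcription start, 5' to 3' on the gene's strand, and of the 3 starts listed for *Slc27a1* the most upstream is shown. Capitals mark matches, on either strand, to AGGTCA (the half-site bound by nuclear receptors such as PPARs), CCAAT (the CCAAT box) and GGGCGG (the GC box).
Cd36, chr5:17835897-17836146, minus strand: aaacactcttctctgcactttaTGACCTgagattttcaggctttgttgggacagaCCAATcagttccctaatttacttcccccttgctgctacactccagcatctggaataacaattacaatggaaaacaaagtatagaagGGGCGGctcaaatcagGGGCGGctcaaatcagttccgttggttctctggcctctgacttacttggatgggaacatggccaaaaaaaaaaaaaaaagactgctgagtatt
Slc27a1, chr8:71568621-71568870, plus strand: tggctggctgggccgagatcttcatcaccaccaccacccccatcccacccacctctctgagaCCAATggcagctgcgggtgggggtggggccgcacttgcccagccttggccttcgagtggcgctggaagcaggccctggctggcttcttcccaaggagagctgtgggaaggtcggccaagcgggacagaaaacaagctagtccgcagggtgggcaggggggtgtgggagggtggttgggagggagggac
Slc27a4, chr2:29802384-29802633, plus strand: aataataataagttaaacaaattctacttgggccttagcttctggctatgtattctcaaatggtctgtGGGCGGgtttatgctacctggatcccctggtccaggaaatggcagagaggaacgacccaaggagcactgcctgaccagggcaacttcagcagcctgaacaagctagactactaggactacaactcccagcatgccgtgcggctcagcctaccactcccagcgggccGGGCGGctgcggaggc
Acsl5, chr19:55253119-55253368, plus strand: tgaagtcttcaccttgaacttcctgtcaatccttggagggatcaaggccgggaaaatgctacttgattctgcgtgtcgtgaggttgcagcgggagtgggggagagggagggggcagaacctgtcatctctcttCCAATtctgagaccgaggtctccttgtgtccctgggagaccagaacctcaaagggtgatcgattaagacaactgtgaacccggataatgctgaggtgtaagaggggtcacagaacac
The *Cd36* sequence held 1 match to AGGTCA, read as TGACCT on the printed strand at 228 bases before the start, 1 to CCAAT at 195 bases and 2 to GGGCGG at 109 and 93 bases. *Slc27a4* held 2 matches to GGGCGG, at 182 and 16 bases before its start, and *Acsl5* held 1 to CCAAT at 117 bases. The sequence of *Slc27a1* held 1 match to CCAAT, at 188 bases before the start, and the sequences before its other starts held 1 GGGCGG, and 3 GGGCGG with 1 CCAAT. Among the 32851 promoters of the table, 14.0% held AGGTCA, 33.8% CCAAT and 32.7% GGGCGG in the same window, so such matches are common and are given as a description of the sequences.

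The lipase and its partners did not move together. *Lpl* (chr8:69284603-69360100, GRCm39, plus strand) had 815 and 1205 normalized counts in the controls and 2317 and 1576 after tamoxifen. Both tamoxifen libraries lay above both controls, although the libraries within each group differed more from each other than the nearest libraries of the groups did. The means were 1010.1 ± 276 and 1946 ± 524 (SD, n = 2), the log2 fold change was 0.95 ± 0.26 (SE; 95% CI 0.35 to 1.54) and the limma BH-adjusted p was 0.0142. *Lpl* thus passed the p threshold of 0.05 but not the required absolute log2 fold change of 1, and was not called. It was called with equal totals, where the log2 fold change was 1.42. With single libraries left out the log2 fold change ranged from 0.66 to 1.23. Without limma's trend option *Lpl* missed the p threshold as well (limma BH-adjusted p = 0.0828).

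*Gpihbp1* (chr15:75468474-75471331, GRCm39, plus strand) fell. Its normalized counts were 144 and 208 in the controls and 54.2 and 31.6 after tamoxifen, from 105 and 166 against 50 and 44 reads. The groups did not overlap, and the mean was 4.10-fold lower after tamoxifen (175.8 ± 45.2 against 42.9 ± 16.0, SD, n = 2). The log2 fold change was -2.03 ± 0.47 (SE; 95% CI -3.13 to -0.94; limma BH-adjusted p = 0.00714). The call was lost when either tamoxifen library was left out (BH-adjusted p of 0.0601 without library 1 and 0.106 without library 2), with log2 fold changes of -2.41 and -1.66.

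*Angptl4* (chr17:33992724-34000804, GRCm39, minus strand) had 2105 and 1815 normalized counts in the controls and 2639 and 1883 in the tamoxifen libraries. The groups overlapped, since tamoxifen library 2 lay between both controls. The log2 fold change of 0.19 ± 0.20 (SE; 95% CI -0.28 to 0.65; limma BH-adjusted p = 0.439) became -0.05 without tamoxifen library 1 and 0.66 with equal totals, and *Angptl4* was called under neither.

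Within a library, the ratio of 2 genes does not depend on the factor by which the library is scaled. *Lpl* reads outnumbered *Gpihbp1* reads 5.67-fold and 5.80-fold in the controls and 42.8-fold and 49.8-fold after tamoxifen. The libraries of each group were close to each other in this ratio, and the group means differed by 3.01 on the log2 scale. The ratio of *Lpl* to its inhibitor *Angptl4* was 0.387 and 0.664 in the controls and 0.878 and 0.837 after tamoxifen, without overlap but with a spread between the controls wider than the gap between the groups. The ratios were not tested.

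**Figure D1:**
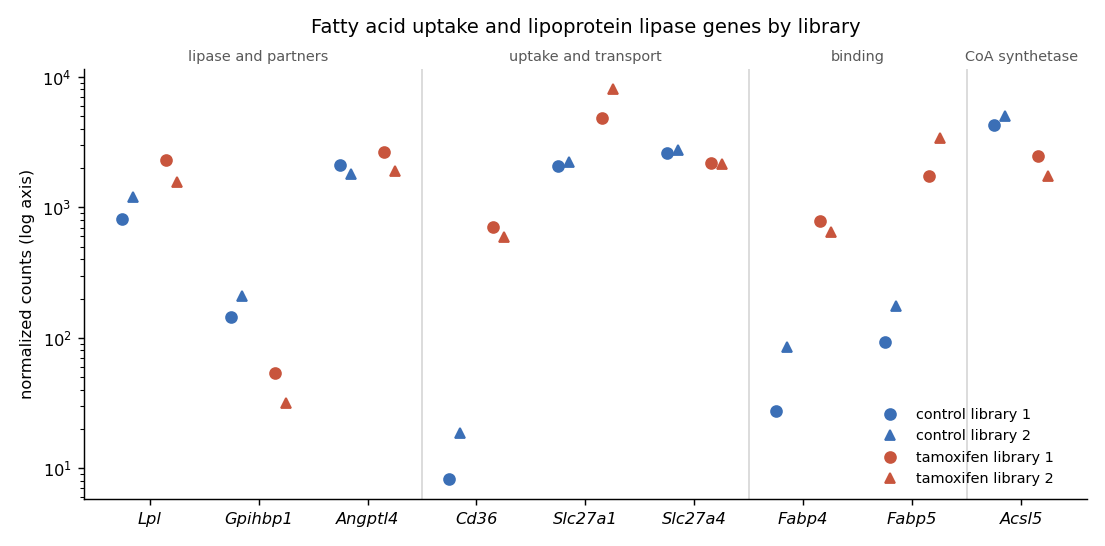
Normalized counts (log axis) of the 9 genes, ordered by role along the horizontal axis, in each of the 4 libraries (blue for control, red for tamoxifen; circles for library 1, triangles for library 2). *Cd36*, *Fabp4* and *Fabp5* show the widest gaps between groups (48.1-fold, 12.8-fold and 19.1-fold by the means), *Gpihbp1* and *Acsl5* lie lower in both tamoxifen libraries, and the groups of *Angptl4* overlap.

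Of the proteins that take up fatty acids at the plasma membrane, *Cd36* (chr5:17986432-18094067, GRCm39, minus strand) was nearly silent in the control libraries. It had 8.22 and 18.8 normalized counts there and 709 and 589 after tamoxifen. The control values rest on 6 reads (exact 95% Poisson interval 2.20 to 13.1) and 15 reads (8.40 to 24.7), intervals that overlap, and the tamoxifen values on 654 and 820 reads. Such intervals cover counting error only. The means were 13.5 ± 7.46 and 649 ± 84.4 (SD, n = 2), and the log2 fold change was 5.58 ± 0.49 (SE; 95% CI 4.44 to 6.72; limma BH-adjusted p = 8.41e-05). *Cd36* rose under every one of the 14 alternatives tried, with log2 fold changes from 4.82 to 6.13.

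CD36 is also made by macrophages, platelets, adipocytes, muscle fibers and red cell precursors, and some markers of each of these were higher in the tamoxifen libraries. The summed microglia and macrophage markers ranged from 1608 to 2990 normalized counts in the controls and from 4852 to 5556 after tamoxifen, with no marker of the list at or below 3 reads in both libraries of a group. Megakaryocyte and platelet markers summed to 299 and 595 in the controls and to 2889 and 2255 after tamoxifen, and erythroid markers to 17409 and 35109 against 161718 and 103773. The muscle markers summed to 28.8 and 23.8 against 2823 and 2554, with *Myh4* and *Tnnt3* at or below 3 reads in both controls. Of the adipocyte list, 2 of the 3 markers tested were called higher and 1 lower, and the list's sum, most of which is *Lipe*, was lower after tamoxifen (2870 and 2871 against 1698 and 915). The defining adipocyte markers *Adipoq*, *Plin1* and *Cidec* were at or below 3 reads in both controls. *Adipoq* stood at 342 and 233 normalized counts after tamoxifen. The part of these cell types in the *Cd36* result was not tested.

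*Slc27a1* (chr8:72021095-72041866, GRCm39, plus strand), whose product FATP1 has acyl-CoA synthetase activity as well as a role in uptake, also rose. Its normalized counts were 2089 and 2227 in the controls and 4851 and 8096 in the tamoxifen libraries. The controls were nearly equal, whereas the tamoxifen libraries differed 1.67-fold, and the groups did not overlap. The means were 2158 ± 97.4 and 6473 ± 2294 (SD, n = 2), with a log2 fold change of 1.54 ± 0.24 (SE; 95% CI 0.98 to 2.09; limma BH-adjusted p = 0.00103). This call held under all 14 alternatives. The 5' end of *Slc27a1* overlaps exons of *Nxnl1* on the opposite strand, but *Nxnl1* had at most 8.67 normalized counts in any library.

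*Slc27a4* (chr2:29692598-29710004, GRCm39, plus strand) stood at 2615 and 2762 normalized counts in the controls and 2184 and 2151 after tamoxifen. Both tamoxifen libraries lay below both controls, but the log2 fold change of -0.31 ± 0.15 (SE; 95% CI -0.65 to 0.03) was not called by limma (BH-adjusted p = 0.103), and it was 0.16 with equal totals. The direction for *Slc27a4* therefore depends on how the libraries are scaled. The within-library ratio of *Slc27a1* to *Slc27a4*, which no scale factor alters, was 0.799 and 0.806 in the controls against 2.22 and 3.76 after tamoxifen. *Slc27a4* had the more reads of the pair in both controls and *Slc27a1* in both tamoxifen libraries.

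**Figure D2:**
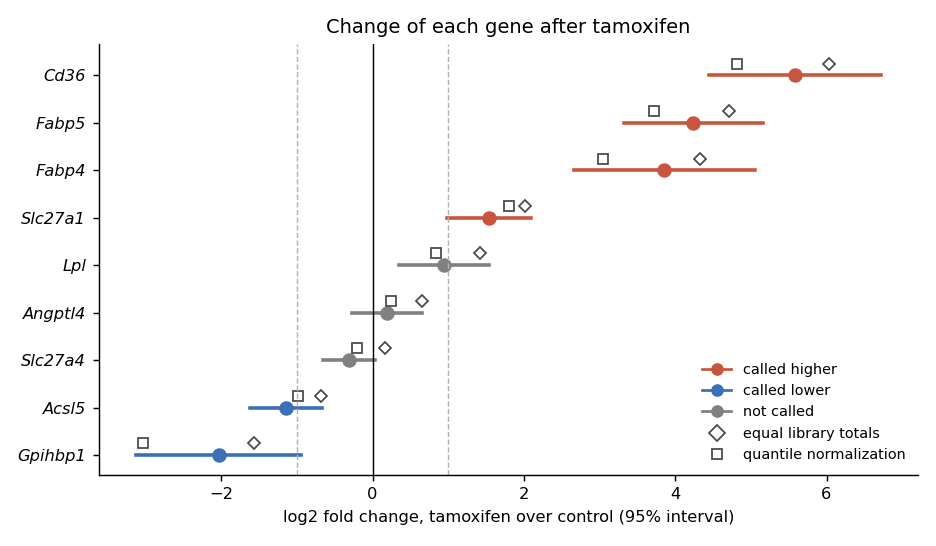
Log2 fold changes between tamoxifen and control (filled points, red for called higher, blue for called lower, gray for not called) with their 95% CI (bars) for the 9 genes, with open diamonds for equal library totals, open squares for quantile normalization and dashed lines at -1 and 1. *Cd36*, *Fabp5*, *Fabp4* and *Slc27a1* lie above 1 under each scaling, *Slc27a4* passes from -0.31 to 0.16 with equal totals, and *Acsl5* lies within the dashed lines under both other scalings.

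Both *Fabp4* and *Fabp5*, which encode cytosolic binding proteins, rose. *Fabp4* (chr3:10268785-10273737, GRCm39, minus strand) had 27.4 and 85.1 normalized counts in the controls, from 20 and 68 reads, and 789 and 649.9 after tamoxifen. The controls differed 3.11-fold, beyond their counting error (exact 95% Poisson intervals of 12.2 to 30.9 and 52.8 to 86.2 reads), yet both lay far below either tamoxifen library. The log2 fold change was 3.86 ± 0.51 (SE; 95% CI 2.66 to 5.05; limma BH-adjusted p = 0.000484), and the mean was 12.8-fold higher. The call was lost when a tamoxifen library was left out, with BH-adjusted p of 0.0735 without library 1 and 0.0737 without library 2, while the log2 fold change was 3.72 without library 1 and above 3.86 without library 2.

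*Fabp5* (chr3:10077602-10081674, GRCm39, plus strand), the form found in epidermis, macrophages and brain, had 93.1 and 176 normalized counts in the controls and 1744 and 3415 after tamoxifen. The libraries of each group differed by a similar ratio, and the groups were far apart. The mean was 19.1-fold higher, with a log2 fold change of 4.24 ± 0.39 (SE; 95% CI 3.32 to 5.16; limma BH-adjusted p = 0.000103), and the call held under all 14 alternatives. The genome holds 4 copies of the *Fabp5* transcript elsewhere, with 94.7% to 98.7% identity over 66.0% to 68.3% of its length. Reads could have been shared with these copies, which adds an uncertainty of unmeasured size to the level of *Fabp5*. The other 8 genes had no such copy. The ratio of *Fabp5* to *Fabp4* was 3.40 and 2.07 in the controls and 2.21 and 5.26 after tamoxifen, and the groups overlapped.

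The tamoxifen libraries were not alike in order. *Fabp5* and *Slc27a1* were higher in tamoxifen library 2, while *Cd36*, *Fabp4*, *Lpl*, *Angptl4*, *Gpihbp1* and *Acsl5* were higher in library 1 and *Slc27a4* was nearly equal. The summed astrocyte markers were 148340 in tamoxifen library 1 and 309258 in library 2, against 28985 and 34647 in the controls, and choroid plexus and ependymal (17170 against 52091), pericyte and smooth muscle (49337 against 93646), neuron (6554 against 10747) and oligodendrocyte sums (5384 against 5929) were also higher in library 2. Endothelial, neutrophil, erythroid, macrophage, platelet, fibroblast and muscle sums were higher in tamoxifen library 1 (for fibroblasts 69745 against 59759, with 2257 and 3213 in the controls). The part of these cell types in the order of the libraries was not tested.

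*Acsl5* (chr19:55240267-55286153, GRCm39, plus strand), which activates long-chain fatty acids at mitochondria and endoplasmic reticulum, fell. It had 4256 and 4979 normalized counts in the controls and 2485 and 1738 after tamoxifen, without overlap. The mean was 2.19-fold lower (4617 ± 511 against 2112 ± 528, SD, n = 2), and the log2 fold change was -1.15 ± 0.20 (SE; 95% CI -1.62 to -0.67; limma BH-adjusted p = 0.00201). The call was lost with quantile normalization (-0.98), with equal totals (-0.68) and without tamoxifen library 2 (-0.89), each time with the direction kept. Exons of *Acsl5* overlap those of *Zdhhc6* on the opposite strand. The library kit marked the strand, but the strand setting of the counting was not given in the sources used here, and *Zdhhc6* had 2430 and 2354 against 1847 and 1841 normalized counts. Antisense long noncoding RNAs outside the table also overlap exons of *Lpl*, *Slc27a4*, *Fabp4* and *Fabp5*, and without the strand setting their reads cannot be told apart from those of the genes.

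In total, 4 of the 9 genes were called higher, where 28.6% of all genes tested were, and 2 were called lower, where 16.0% were. Together 6 of 9 were called, against 44.7% of all genes, and so small a count makes no statement about the 9 genes as a group. All 9 passed the filter of a mean of at least 10 normalized counts. Both tamoxifen libraries lay above both controls for 5 genes (43.1% of all genes) and below for 3 (39.2%). Their median log2 fold change was 0.95, against 0.05 over all genes tested. Without tamoxifen library 1, 4 of the 9 were called, and without library 2, 3 were called, namely *Cd36*, *Slc27a1* and *Fabp5*.

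Levels can be compared between genes only per length, as TPM, the recovered reads divided by the length of each gene's canonical transcript and scaled to 1 sum in every library. In the controls *Acsl5* stood highest (68.0 ± 5.38 TPM, SD, n = 2), followed by *Angptl4* (38.1), *Slc27a4* (26.4), *Slc27a1* (25.8), *Lpl* (15.7), *Gpihbp1* (13.5), *Fabp5* (8.66), *Fabp4* (2.63) and *Cd36* (0.245). *Slc27a4* and *Slc27a1* differed there by less than 1 TPM, and the libraries of *Lpl* and *Gpihbp1* overlapped. After tamoxifen the order began with *Fabp5* (206 ± 107 TPM), *Slc27a1* (95.1) and *Angptl4* (52.8). *Fabp4* (41.0), *Acsl5* (37.5) and *Lpl* (36.5) followed with overlapping neighbours, and then came *Slc27a4* (25.8), *Cd36* (14.4) and *Gpihbp1* (3.97). *Fabp5* moved from the seventh place to the first and *Acsl5* from the first to the fifth, while *Cd36* passed *Gpihbp1*, which became the lowest. The TPM of *Slc27a4* was 26.3 and 26.5 in the controls and 24.7 and 26.9 after tamoxifen and overlapped, unlike its normalized counts.

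**Figure D3:**
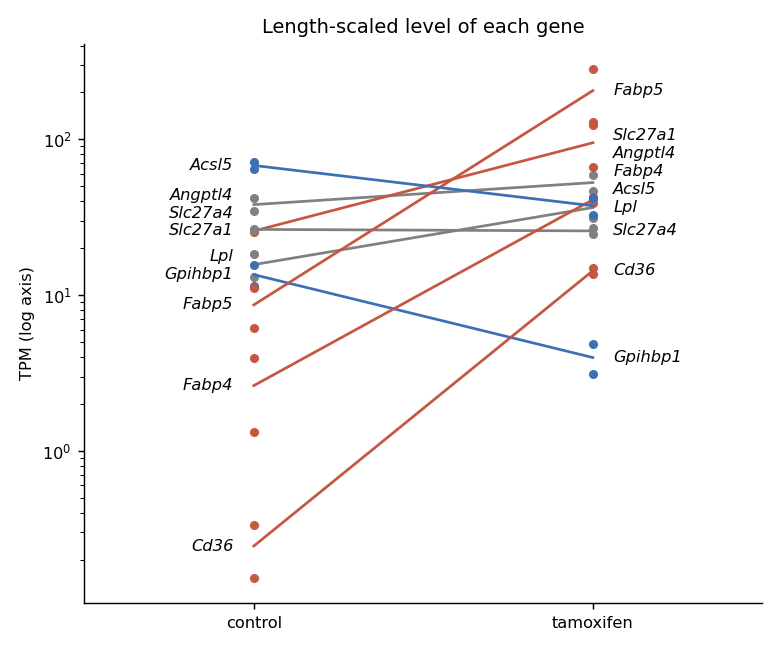
TPM of the 9 genes in the control and tamoxifen libraries (points, 2 per group, log axis), with lines joining the group means, red for genes called higher, blue for genes called lower and gray for genes not called. *Fabp5* passes from the seventh place to the first (8.66 to 206 TPM), and *Acsl5* and *Gpihbp1* are the lines that descend most.

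Because endothelial markers were lower as a whole, the 9 genes were also measured against them, by subtracting the mean log2 level of the 16 markers in each library before the fit. This contrast asks whether a gene moved with the endothelial markers, and 87.2% of all genes tested were called higher in it and 0.083% lower, with a median of 3.04. *Gpihbp1* was the only one of the 9 genes that was not called (log2 difference 0.96 ± 0.85 SE; 95% CI -0.71 to 2.63; limma BH-adjusted p = 0.277), and under quantile normalization its value was -0.79. A difference from the endothelial markers of up to 2.63 on the log2 scale remains within its interval. *Acsl5*, called lower in the direct comparison, was higher relative to the markers (1.84 ± 0.56 SE; limma BH-adjusted p = 0.00141), although this call was lost without either control library and under quantile normalization. The other 7 genes were called higher by 2.68 (*Slc27a4*) to 8.58 (*Cd36*). The call of *Slc27a4* was lost without control library 1 (log2 difference 2.69) and without control library 2 (2.68), and that of *Angptl4* without control library 2 (3.03). The median of the 9 genes was 3.94, and 8 of 9 called stands near the share of all genes. Without control library 2, 5 of the 9 genes were called. *Acsl5* reads per *Cdh5* read were 0.0538 and 0.0577 in the controls and 0.159 and 0.204 after tamoxifen. For *Gpihbp1* the ratios to *Cdh5* were 0.00182 and 0.00241 in the controls and 0.00348 and 0.00372 after tamoxifen, without overlap. Its log2 ratio differed by 0.78 between the group means, and these ratios were not tested.

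**Figure D4:**
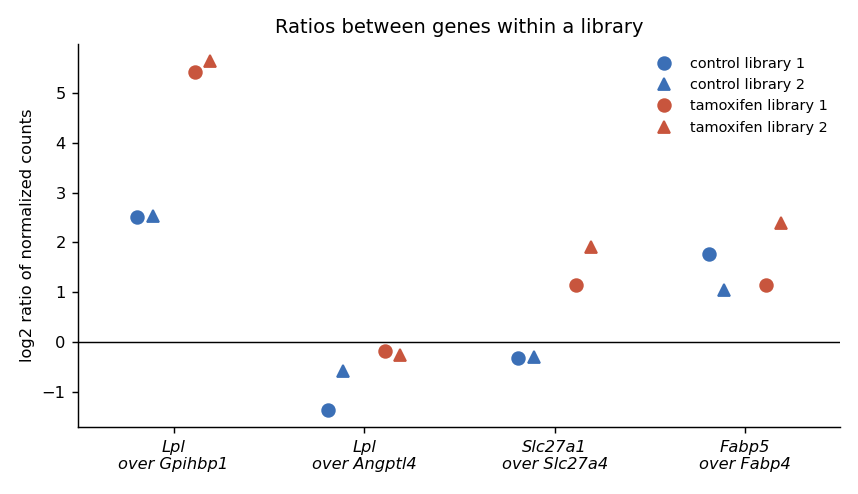
Log2 ratios of normalized counts between pairs of genes within each library (blue for control, red for tamoxifen; circles for library 1, triangles for library 2), which no scale factor of a library alters. The ratio of *Lpl* to *Gpihbp1* differs by 3.01 and that of *Slc27a1* to *Slc27a4* by 1.85 between the group means, and the ratio of *Fabp5* to *Fabp4* overlaps between groups.

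Genes that act beside these 9 were examined in 9 lists of 102 genes, of which 93 were in the table and 87 were tested. Of the 87, 27 were called higher (31.0%) and 15 lower (17.2%), shares close to those of all genes, and their median log2 fold change was -0.04. Without tamoxifen library 2, 27 instead of 42 were called.

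Among 10 tested lipases and lipase regulators, 3 rose, 2 fell and 5 were not called. *Pcsk6*, a proprotein convertase able to cleave lipases and ANGPTL proteins, had 131 ± 44.3 normalized counts in the controls and 2046 ± 166 after tamoxifen (SD, n = 2; log2 fold change 3.99 ± 0.27, SE). Endothelial lipase (*Lipg*) rose from 12.3 and 27.5 to 234 and 216, and *Apoc1*, an apolipoprotein that inhibits lipase, from 27.4 and 33.8 to 339 and 298. *Angptl8*, a partner of ANGPTL proteins in lipase inhibition, fell from 82.2 and 87.6 to 19.5 and 25.9, and *Furin*, a convertase that also cleaves these proteins, from 9273 and 10468 to 4583 and 3413. Relative to the endothelial markers, *Angptl8* was not called (log2 difference 1.12 ± 0.90, SE) and *Furin* was called higher (1.67 ± 0.52). The receptors that take up whole lipoproteins split in 3 that rose and 3 that fell of 7. The VLDL receptor gene *Vldlr* rose from 87.7 and 113 to 2339 and 2548 normalized counts (24.4-fold by the means), and *Sorl1* and *Lrp1*, which belong to the same receptor family, rose by 3.73 and 2.94 on the log2 scale. *Lsr*, which encodes a lipoprotein receptor that is also a tricellular junction protein, fell from 8580 and 8538 to 1842 and 890, while *Scarb1*, the HDL receptor, and *Lrp8*, an apolipoprotein E and reelin receptor, had log2 fold changes of -2.05 and -1.71. Relative to the endothelial markers, *Lsr* (log2 difference 0.25 ± 0.56, SE) and *Scarb1* (0.94 ± 0.49) were not called, and *Lrp8* was called higher (1.29 ± 0.45).

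Of 7 other fatty acid transporters, 1 rose, 2 fell and 4 were not called. *Mfsd2a*, the lysophospholipid carrier of brain ECs, fell from 42749 and 46271 normalized counts to 12826 and 8491, and *Cav1*, the caveolin that holds CD36 at the surface, from 23544 and 23532 to 5556 and 3540. Neither was called relative to the endothelial markers, with log2 differences of 0.90 ± 0.45 and 0.58 ± 0.49 (SE). *Slc27a2* rose from 11.0 and 25.0 to 163 and 106. Both of the other fatty acid binding protein genes in the table rose, *Fabp3* of heart and muscle from 17.8 and 7.51 to 1879 and 1402 (129.6-fold by the means) and *Fabp7* of astrocytes and neural progenitors from 122 and 115 to 1718 and 4208. The *Fabp3* controls rest on few reads and differed 2.37-fold, so the size of its rise is less certain than its direction. *Fabp7* was higher in tamoxifen library 2 and *Fabp3* in library 1. With 2 libraries a group, such an order gives no measure of likeness between genes, and what sets it was not tested.

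Among 7 tested other acyl-CoA synthetases 5 rose (28.6% of all genes tested did), none fell (16.0% of all) and 2 were not called. *Acss1*, a mitochondrial acetyl-CoA synthetase, rose by 3.77 on the log2 scale, *Acsbg1*, a glial synthetase, by 3.41 (from 421 and 582 normalized counts to 3441 and 8068), and *Acsl6*, a neural one, by 2.98 (from 681 and 831 to 4244 and 8366). *Acsl1*, the main form of fat and heart, had 5083 and 5157 against 3472 and 2870 normalized counts. Both tamoxifen libraries lay below both controls, as for *Acsl5*. *Acsl1* passed the p threshold (limma BH-adjusted p = 0.00707) but was not called, with a log2 fold change of -0.70 ± 0.16 (SE). *Acsbg2* had no read in either control and 18.4 and 17.3 normalized counts after tamoxifen, and fell below the filter.

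The list of regulators of endothelial fatty acid transport divided into 4 that rose, 4 that fell and 3 that were not called, with a median of -0.79. *Flt1*, the VEGFB receptor, fell from 312914 and 283220 normalized counts to 43942 and 19956 (log2 fold change -3.33 ± 0.44, SE), and its coreceptor *Nrp1* by a log2 fold change of -2.45. Of the nuclear receptors, *Ppard* fell from 14048 and 13426 to 4150 and 2841, *Pparg* rose from a mean of 21.0 ± 1.34 to 83.8 ± 27.1 (SD, n = 2), and *Ppara* was not called. *Flt1*, *Nrp1* and *Ppard* were not called relative to the endothelial markers, with log2 differences of -0.34 ± 0.38, 0.54 ± 0.47 and 0.99 ± 0.51 (SE). *Tcf15*, a transcription factor of heart ECs that acts with MEOX2, rose from 196 and 190 to 830 and 699, and the coactivator *Ppargc1a* rose by 2.99 on the log2 scale. Most of the 10 tested PPAR target genes were not called (8), and *Ucp3*, a mitochondrial carrier of muscle, rose by 3.85 on the log2 scale.

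Downstream of uptake, 17 genes were listed under mitochondrial fatty acid oxidation, and 16 of them were not called. The median log2 fold change of the 17 was -0.24. The only call was that of *Cpt1c*, the neuronal member of its family (higher by 3.18), and whether it takes part in oxidation was not tested. Of 16 tested genes of triglyceride storage and lipolysis, 7 rose, 3 fell and 6 were not called. The synthesis gene *Dgat2* rose from 42.5 and 46.3 to 385 and 469 normalized counts, and *Pnpla3* and the lipid droplet gene *Plin4* rose by 3.19 and 3.07 on the log2 scale. The 3 genes that fell were *Pnpla2*, which encodes adipose triglyceride lipase (13077 and 17074 against 3551 and 2185), *Lipe*, hormone-sensitive lipase (log2 fold change -1.70), and *Abhd5*, the activator of adipose triglyceride lipase (-1.10). Relative to the endothelial markers, *Pnpla2* was not called (log2 difference 0.57 ± 0.51, SE), and *Lipe* (1.29 ± 0.61) and *Abhd5* (1.89 ± 0.61) were called higher. *Plin1*, *Cidec* and *Fitm1* of this list had no read in either control and were below the filter.

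**Figure D5:**
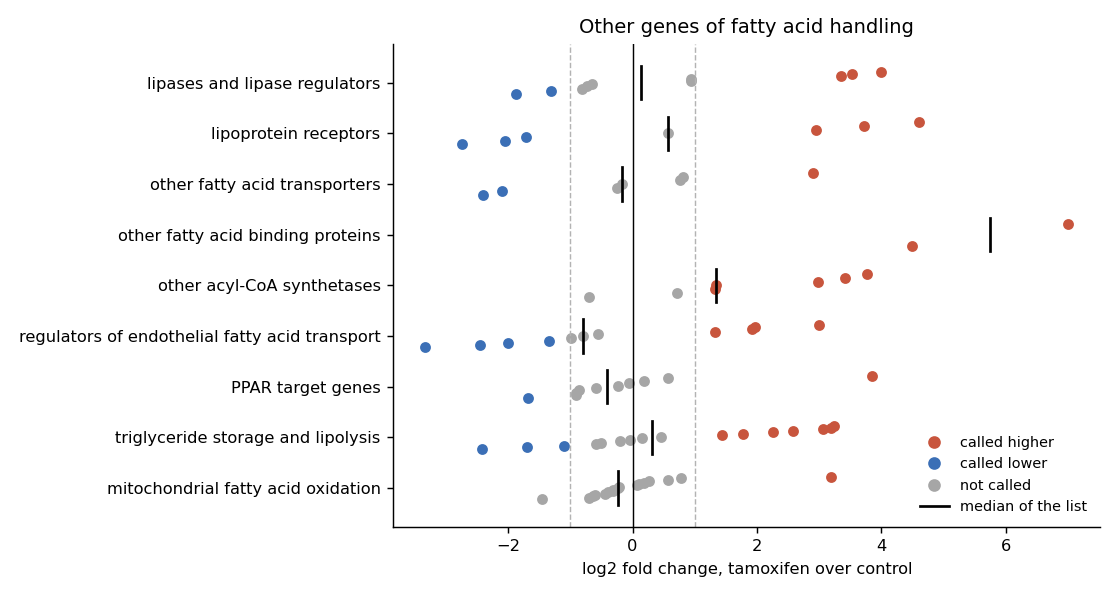
Log2 fold changes between tamoxifen and control of the 87 tested genes in the 9 lists (points), colored by call, with the median of each list as a vertical bar and dashed lines at -1 and 1. The list of other fatty acid binding proteins lies highest (median 5.75, 2 genes), 16 of the 17 points of the oxidation list are gray around a median of -0.24, and all other lists hold genes on both sides of 0.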

How the data were processed

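RNA of 2 control and 2 tamoxifen samples was made into libraries with a stranded mRNA kit. Reads were aligned with STAR 2.7.10a to GRCm39, and normalized with DESeq2 1.36.0, per the labels and the study's methods. Each deposited value is a signal, the gene's read count divided by its library's size factor, and the authors had removed genes with low counts. The annotation release, the low-count limit and the strand setting were not given in the sources used here. Division of each column by the value of 1 read gave whole reads for 100% of values (within 0.01 reads), with totals of 37475154, 41025014, 35387438 and 49799321 (control 1, control 2, tamoxifen 1, tamoxifen 2). A count of 3 reads, taken as the floor, equalled 4.11, 3.75, 3.25 and 2.16 normalized counts. Floors and Poisson intervals cover counting error only.

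Groups were compared with limma 3.58.1 in R 4.3.3 with its trend option, after genes under a mean of 10 had been removed, on log2(normalized count + 1). Benjamini-Hochberg (BH) adjustment covered all 20485 genes tested. This scale understates fold changes of low genes. A gene was called where its BH-adjusted p was under 0.05 and its log2 fold change exceeded 1 in size. Per the study the libraries of a group came from independent pools of mice. The p-values rest on the spread between these pools, which limma moderated toward that of genes of like level. In the contrast relative to endothelial markers, the spread used came from genes of like level alone. The 9 genes and the lists were chosen with earlier results of these data known. All 9 genes are given with every library's value. Of each of the 9 pathway lists, the called genes with the largest absolute log2 fold changes were named, up to 3 in each direction, where groups did not overlap; 1 such gene is not reported here. *Acsl1*, *Ppara*, *Acsbg2*, *Plin1*, *Cidec*, *Fitm1*, *Adipoq*, *Nxnl1* and *Zdhhc6*, and all genes under the closing observations, were named after their values were seen. Gene positions and transcript lengths came from GENCODE M39, and copies (at least 90% identity over at least 50% of the transcript) were searched with blastn 2.17.0. Tables were handled in Python 3.11.15 with pandas 2.3.3 and numpy 2.4.6.

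On data simulated from these libraries, limma called 184 of 200 changed genes among 20492, none in the wrong direction, and 6 unchanged ones. The simulation gave every gene the same dispersion and changed far fewer genes than were called in the real data. It checks that the code runs as intended and gives no error rate for the real calls. As alternatives, the fit was repeated with the replicate number as a block, without the trend, with pseudocounts of 0.5 or 5, with a minimum mean of 100 or none, with quantile normalization or equal totals, with each library left out, and on recovered reads with edgeR 4.0.16 (quasi-likelihood) and DESeq2 1.42.0. For the contrast relative to endothelial markers, 2 other reference sets were tried.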

Additional observations from a re-analysis of the deposited data

How the results depend on the processing

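Of all genes tested, 9151 were called, 8739 with DESeq2, 9241 with edgeR and 5934 with the filter at a mean of 100, where fewer genes were tested. With each library left out in turn, the calls ranged from 4979 (without tamoxifen library 2) to 10001 over all genes, from 3 to 7 among the 9 genes, from 27 to 48 among the 87 pathway genes, and from 5 to 8 for the 9 genes relative to endothelial markers. Where a group kept 1 library, it was assumed to vary like the other group. With the replicate number as a block, 9525 genes, 6 of the 9 and 42 of the pathway genes were called. Nothing in the labels says that equal numbers mark a pair, and the correlation of the libraries' deviations between groups was 0.0251.

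Signs changed for *Angptl4* without tamoxifen library 1 (-0.0540, and 0.433 without library 2), for *Slc27a4* (0.16) and *Mgp* (0.0786) with equal totals, and for *Gpihbp1* relative to endothelial markers with quantile normalization (-0.79), none of which was called in the comparison as reported. Of the 126 values of the 9 genes under alternatives, 115 kept direction and call. *Cd36*, *Slc27a1* and *Fabp5* kept theirs under all 14 alternatives. Equal totals shifted the median of all genes by 0.49, quantile normalization by -0.25 and no filter by 0.12 on the log2 scale. The causes of these shifts were not tested. With 2 libraries a group, and 6 and 15 reads of *Cd36* in the controls, sizes of its fold change are less certain than its direction.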

Other observations

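Lists that adjoin fatty acid uptake were written after values had been seen, and are given as values only. Of 8 tested genes of fatty acid synthesis, 3 rose (28.6% of all genes tested did), 1 fell (16.0% of all) and 4 were not called. Fatty acid synthase (*Fasn*) had 1370 and 1861 normalized counts in the controls and 18035 and 18821 after tamoxifen, a log2 fold change of 3.53, and *Me1*, which supplies NADPH, rose by 3.34. *Acacb*, the acetyl-CoA carboxylase form that acts at mitochondria, fell from 6949 and 7097 to 1838 and 1078, and was not called relative to the endothelial markers (log2 difference 0.67 ± 0.56, SE).

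Of 14 tested genes of fatty acid desaturation and elongation, to be read beside the same shares of all genes, 9 rose, 2 fell and 3 were not called, with a median log2 fold change of 1.65. The elongases *Elovl4*, *Elovl2* and *Elovl6* rose by 4.45, 4.31 and 3.08 on the log2 scale, and the stearoyl-CoA desaturase gene *Scd1* from 463 and 941 to 7342 and 6231 normalized counts. The elongases *Elovl7* and *Elovl1* fell, with log2 fold changes of -2.34 and -1.30. Relative to the endothelial markers, *Elovl7* was not called (log2 difference 0.65 ± 0.58, SE) and *Elovl1* was called higher (1.69 ± 0.56). Of 13 tested genes of peroxisomal oxidation, 3 rose, 1 fell and 9 were not called. The transporter gene *Abcd2* rose from 144 and 228 to 1181 and 1929, and *Acox3* fell from 3626 and 3964 to 1771 and 1546. Relative to the endothelial markers, *Acox3* was called higher (log2 difference 1.80 ± 0.58, SE).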
